A study of Homo sapiens with 6 samples.

Results

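Transcripts that run antisense to a named gene or divergently from its promoter were examined in the MDA-MB-231 line, which was derived from a triple-negative breast cancer and is of mesenchymal type, after knockdown of the pseudouridine synthase PUS1. The members were the rows of the deposited gene table whose symbol ends in -AS1 (antisense) or -DT (divergent transcript) and whose estimated counts summed to at least 200 over the 6 libraries. There were 147 such rows, 119 ending in -AS1 and 28 in -DT, among the 1671 rows with these endings and the 60605 rows of the whole table. Because they were selected on summed counts, their level is a description and not a finding. Just inside the threshold lay FBXL19-AS1 with 200 counts, FOXD2-AS1 with 204 and ENTPD3-AS1 with 209, and just outside it RAD21-AS1 with 199.2, LYPLAL1-DT with 199 and NR2F2-AS1 with 196. Each member was set against its host, the gene whose symbol precedes the hyphen. The 147 members had 146 hosts, since MRPL20 has both an -AS1 and a -DT partner. Both arms were the same cell line carrying an shRNA from a lentivirus under puromycin selection, a control hairpin in shControl and a hairpin against PUS1 in shPUS1, with 3 libraries labelled as biological replicates in each arm. Where nothing states that the replicates came from separate selections, the p-values measure the spread between these libraries.

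Many human promoters are transcribed in both directions, and the noncoding RNA that leaves against the direction of the gene is usually ended early by the Integrator complex or by poly(A) site cleavage and is degraded by the nuclear exosome. Some of these RNAs escape, are spliced and polyadenylated, and accumulate as divergent transcripts. Antisense transcripts can also start inside or beyond the host and cross its exons, and some of them act on the expression of their host or serve as binding sites for proteins and microRNAs. Poly(A) selection, used for these libraries, retains only the polyadenylated share of such RNAs.

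In the table, PUS1 (ENSG00000177192) stood at 18.0 ± 8.27 CPM (SD, n = 3) in shControl and 5.80 ± 0.662 CPM (SD, n = 3) in shPUS1, where CPM are counts scaled to a common library size after trimmed mean normalization (TMM). On the log2 scale shPUS1 over shControl was -1.64 (standard error 0.322, edgeR adjusted p = 0.0462). The libraries held 14241513 to 19626001 counts after rounding. The shControl replicate 2 library stood apart, with Pearson's r of log2 CPM across genes of 0.951 and 0.952 to the other controls, against 0.981 between the other pair of controls and 0.987 to 0.991 among the shPUS1 libraries. It was the lowest of all 6 libraries in 58 members and the highest in 38. Some values of the members and hosts described in detail are therefore also given without it, but not all that move. PUS1 was at -1.20 on the log2 scale without it (edgeR adjusted p = 0.00311). All 7 markers of the line were present, from 27.0 to 379 FPKM on average (fragments per kilobase of exon, scaled to library size), and their summed FPKM was 1022.5 to 1233 in shControl and 826 to 872 in shPUS1. The 7 genes that the line should lack or hold low lay on average between 0.00333 and 5.67 FPKM. Of the fibroblast and leukocyte markers, the T cell gene CD3E was at 0 in every library. The summed FPKM of these 8 markers lay between 2.11 and 8.22 in shControl and between 11.6 and 13.6 in shPUS1. Most of this sum was PDGFRB, at 3.87 and 7.51 FPKM, and COL1A1, at 1.57 and 3.29 FPKM (edgeR adjusted p = 0.195 and 0.110). LUM, a matrix proteoglycan of fibroblasts, rose from 0.230 to 1.56 FPKM (log2 fold change 2.82, edgeR adjusted p = 0.0462). The fibroblast genes COL1A2 and DCN averaged only 0.0117 and 0.00833 FPKM over the 6 libraries. The part of these markers in the results on the members was not tested.

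By their coordinates, 78 members overlapped the host on the opposite strand beyond its 5′ end (antisense overlapping), 67 started on the opposite strand within 2000 bases of the host's start and ran away from it (divergent), and 2 lay on the opposite strand farther away. The endings did not mark these classes exactly, since 41 of the -AS1 members were divergent and 2 of the -DT members were antisense overlapping. Among the divergent members the start sites were separated by a gap in 27 and the 5′ ends overlapped in 40, with a median distance of 294 bases. The histogram of start distances peaks at gaps of under 200 bases, which held 22 members, 15 of them -DT. In the annotation used for comparison, 115 of the 147 members shared exon bases with another gene, 104 of them with the host, and 32 shared none. Whether the reads were counted by strand is not given in the sources used here, and without strand the reads of a shared stretch cannot be told apart.

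**Figure D1:**
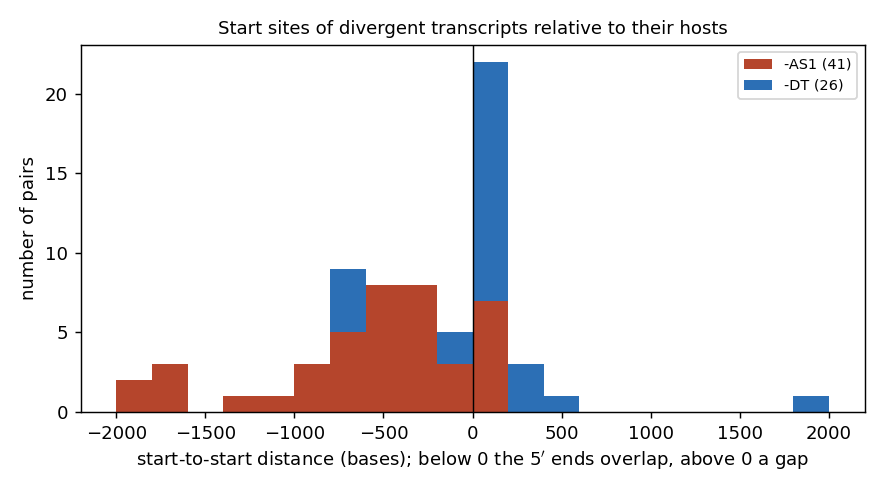
Number of divergent pairs (vertical axis) by the distance in bases between the start of the transcript and that of its host (horizontal axis), in steps of 200 bases and stacked by ending; below 0 the 5′ ends overlap and above 0 they are separated by a gap. The tallest bar, with 22 pairs, is the one from 0 to 200 bases.

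RefSeq promoter windows of GRCh38.p14, from 250 bases before to 50 after the annotated start, were found by symbol for 116 members and 124 hosts. Of 50 divergent pairs with both windows, 28 had windows that overlapped. Windows of the members held a median of 27.5 CpG dinucleotides and those of the hosts 26, against 14 in all 27305 windows. The GC box GGGCGG was found on either strand in 68.1% of the members' windows, 68.5% of the hosts' and 44.6% of all. The CCAAT box (CCAAT) was found in 35.3%, 33.1% and 35.7%, the TATA box (TATAAA) in 5.17%, 6.45% and 12.0%, and the E-box (CACGTG) in 8.62%, 8.87% and 7.43%. None of these 4 motifs contains another. A match is a description of the letters and not a site of binding.

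The windows of the transcripts on which the results below turn are printed 5′ to 3′ on the strand of the transcript named, with matches to the 4 motifs on either strand in capitals. They are the member past the threshold (PAX8-AS1), the member with the largest negative log2 fold change with its host (TMPO-AS1 and TMPO), and 3 divergent transcripts that share a window with the host and whose difference to it did not overlap between the groups (TMCC1-DT, RAB30-DT and WDR5B-DT).
PAX8-AS1 (chr2:113235277-113235576, plus strand): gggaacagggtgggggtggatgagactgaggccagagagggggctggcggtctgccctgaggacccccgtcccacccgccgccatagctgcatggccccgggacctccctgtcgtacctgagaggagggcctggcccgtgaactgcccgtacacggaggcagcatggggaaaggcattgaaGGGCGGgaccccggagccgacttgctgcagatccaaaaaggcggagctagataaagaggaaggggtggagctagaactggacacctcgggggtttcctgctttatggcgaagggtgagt
TMPO-AS1 (chr12:98516177-98516476, minus strand): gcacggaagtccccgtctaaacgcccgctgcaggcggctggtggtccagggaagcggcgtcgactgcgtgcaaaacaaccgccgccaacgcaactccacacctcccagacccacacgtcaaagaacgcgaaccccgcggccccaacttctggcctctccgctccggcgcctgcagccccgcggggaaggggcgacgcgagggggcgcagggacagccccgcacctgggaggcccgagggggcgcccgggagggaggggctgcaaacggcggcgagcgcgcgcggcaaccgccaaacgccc
TMPO (chr12:98515323-98515622, plus strand): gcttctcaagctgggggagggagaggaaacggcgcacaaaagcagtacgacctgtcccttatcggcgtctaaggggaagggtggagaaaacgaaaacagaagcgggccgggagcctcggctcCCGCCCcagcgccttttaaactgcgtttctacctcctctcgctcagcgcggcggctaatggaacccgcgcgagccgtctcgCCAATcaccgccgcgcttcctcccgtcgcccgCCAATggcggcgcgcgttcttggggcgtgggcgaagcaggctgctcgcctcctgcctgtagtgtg
TMCC1-DT (chr3:129893621-129893920, plus strand): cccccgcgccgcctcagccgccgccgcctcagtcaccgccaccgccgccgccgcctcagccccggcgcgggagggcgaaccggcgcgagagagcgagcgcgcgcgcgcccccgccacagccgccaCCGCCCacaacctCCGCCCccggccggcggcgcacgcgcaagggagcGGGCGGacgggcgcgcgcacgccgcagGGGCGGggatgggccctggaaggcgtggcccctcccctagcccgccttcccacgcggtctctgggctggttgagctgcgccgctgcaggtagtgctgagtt
RAB30-DT (chr11:83071816-83072115, plus strand): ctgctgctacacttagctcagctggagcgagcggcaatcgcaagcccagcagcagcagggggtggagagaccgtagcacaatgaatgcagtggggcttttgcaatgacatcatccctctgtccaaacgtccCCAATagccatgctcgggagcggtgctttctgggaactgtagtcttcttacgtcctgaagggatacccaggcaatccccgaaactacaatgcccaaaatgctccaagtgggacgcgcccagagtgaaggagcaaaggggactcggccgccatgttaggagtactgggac
WDR5B-DT (chr3:122415956-122416255, plus strand): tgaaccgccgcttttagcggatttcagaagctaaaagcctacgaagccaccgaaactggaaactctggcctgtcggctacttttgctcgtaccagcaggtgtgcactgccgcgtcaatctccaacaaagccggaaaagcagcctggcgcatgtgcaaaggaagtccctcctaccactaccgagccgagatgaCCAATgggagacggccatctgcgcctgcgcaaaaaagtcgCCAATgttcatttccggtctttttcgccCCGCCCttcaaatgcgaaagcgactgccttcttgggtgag
The window of PAX8-AS1 holds 1 GC box. It lies inside the span of the counted row, downstream of the start at 113211421 in the table's coordinates. The window of TMCC1-DT shares 259 bases with that of TMCC1 and holds 4 GC boxes. The window of RAB30-DT shares 268 bases with that of RAB30 and holds 1 CCAAT box and no GC box. The window of WDR5B-DT shares 243 bases with that of WDR5B and holds 2 CCAAT boxes and 1 GC box. The windows of TMPO-AS1 and TMPO do not overlap in RefSeq, and the 2 CCAAT boxes and the GC box of this pair lie in that of TMPO.

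Most members were present at a low level. Their median was 1.09 FPKM over the 6 libraries, against 5.76 FPKM for their hosts, and 68 members lay under 1 FPKM while 12 reached 5 FPKM. Over the pairs, the host lay at a median of 4.15 times the level of the member, and 51 members stood at least 10-fold below the host. The ratio was 7.33 for divergent members, 2.93 for antisense overlapping members and 9.76 for those ending in -DT. The member lay below the host in every library in 105 pairs, and above it in every library in 32. FGD5-AS1 (ENSG00000225733) had the highest level at 23.3 FPKM, next to a host, FGD5, a guanine nucleotide exchange factor of endothelial cells, that was listed at 0 in every library. SLCO4A1-AS1 at 15.4 FPKM, SERTAD4-AS1 at 12.1 and LIMD1-AS1 at 12.0 (hosts: an organic anion transporter, a SERTA domain protein and a LIM domain scaffold) also exceeded their hosts, which stood at 4.19, 4.30 and 5.12 FPKM. CHMP1B-AS1 at 14.4 FPKM lay opposite CHMP1B, a subunit of the ESCRT-III membrane scission complex, at 73.2 FPKM. All 553 of its exon bases are also exon bases of CHMP1B, and 67.1% of those of LIMD1-AS1 are shared with LIMD1 or SACM1L. OIP5-AS1, also known as Cyrano and studied for its pairing with a microRNA, stood at 9.15 FPKM beside OIP5, a centromere protein, at 8.96.

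**Figure D2:**
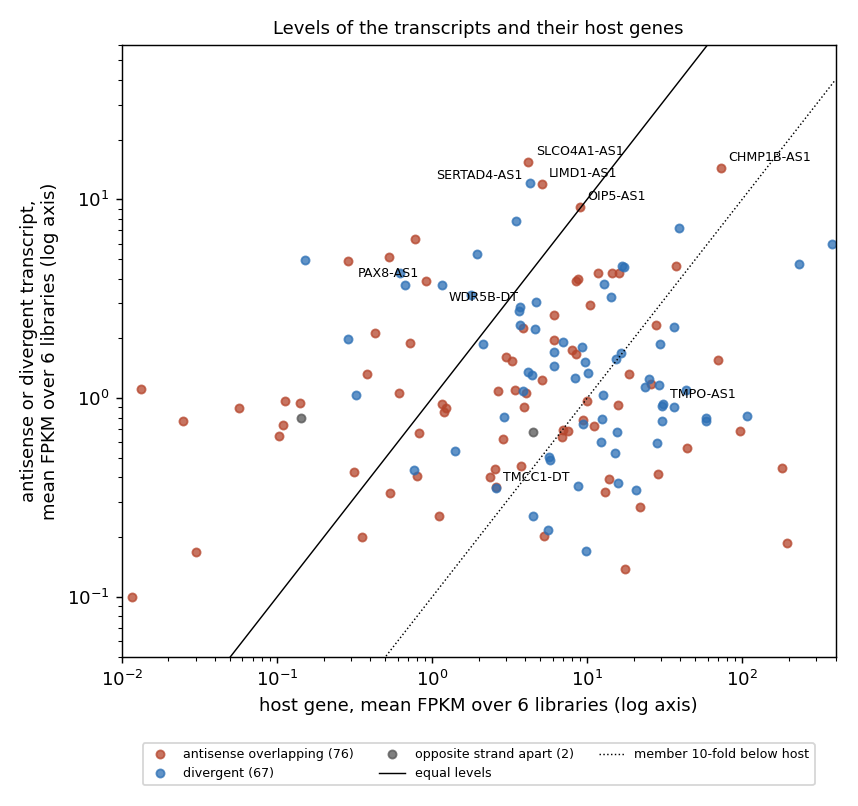
Mean FPKM over the 6 libraries of each transcript (vertical log axis) and of its host (horizontal log axis), coloured by position, for the 145 pairs whose host is not at 0. Most points lie under the solid line of equal levels, and 51 transcripts lie at or under the dotted line, at least 10-fold below the host.

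Together the members took a small and similar share of both arms. Their summed level was 1409, 1411 and 1485 CPM in the shControl libraries and 1431, 1553 and 1455 CPM in the shPUS1 libraries, and the groups overlapped. The means were 1435 ± 43.4 and 1480 ± 64.5 CPM (SD, n = 3 each), a ratio of 1.03 (exact two-sided permutation test, p = 0.5, where 0.1 is the smallest p that 3 libraries against 3 allow). This sum was 0.137% to 0.155% of each library's counts.

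With PUS1 lowered, 1 of the 147 members passed the threshold, set at an adjusted p below 0.05 with a log2 fold change of 1 or more in either direction, which is 0.680% beside 1.37% of all 14748 genes tested. The member was PAX8-AS1, and it rose, as 0.888% of all genes did. It was also the 1 member with an adjusted p under 0.05 at any fold change, beside 2.58% of all genes. An unadjusted p under 0.05 was reached by 24 members (16.3%), 10 higher and 14 lower, beside 25.5% of all genes. The shPUS1 libraries all lay above the shControl libraries in 17 members (11.6%, beside 18.8% of all genes) and all below in 19 (12.9%, beside 17.3%). The share of members called was thus below that of all genes in each of these counts. The members also rested on fewer reads, with a median summed count of 530 against 2416 for all genes tested and a median standard error of 0.274 against 0.210 on the log2 scale. The median log2 fold change was -0.08 for the members, -0.03 for all genes tested and 0.05 for the hosts, and 109 members (74.1%, beside 70.9% of all genes) lay within 0.5 of 0. In bulk RNA, fewer cells that hold a transcript and less of it per cell cannot be told apart. Without shControl replicate 2, 4 members passed the threshold (beside 3.28% of all genes) and 18 had an adjusted p under 0.05. With DESeq2, 3 passed (beside 3.59%) and 7 had an adjusted p under 0.05. For the 18 and the 7, the share of all genes with an adjusted p under 0.05 was not counted. They are therefore no result about the members.

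PAX8-AS1 (ENSG00000189223, chromosome 2, 113211421 to 113276581, plus strand) rose 2.10-fold. It was measured at 55.8, 43.5 and 67.9 CPM in shControl and at 107, 136 and 108 CPM in shPUS1. The groups were far apart, at 55.8 ± 12.2 and 117 ± 16.5 CPM (SD, n = 3 each), a change of 1.07 on the log2 scale (standard error 0.189, adjusted p = 0.0405). The host PAX8, a paired box transcription factor of thyroid and kidney development, was measured at 3.60, 6.29 and 4.91 CPM in shControl and 6.96, 10.3 and 8.44 CPM in shPUS1. Its groups did not overlap either (log2 fold change 0.79, adjusted p = 0.127). Without shControl replicate 2 PAX8 was at 1.01 on the log2 scale with an adjusted p of 0.0201, past the threshold. PAX8-AS1 lay at 3.90 FPKM and PAX8 at 0.912 FPKM, so the antisense transcript was the more abundant partner. The difference of log2 CPM between the partners was higher by 0.28 in shPUS1, with overlapping groups (exact permutation p = 0.8), and lower by 0.08 without shControl replicate 2. The transcripts share 3.97% of the exon bases of PAX8-AS1. The call did not hold when shControl replicate 1 or shPUS1 replicate 1, 2 or 3 was left out, with adjusted p of 0.0937, 0.175, 0.232 and 0.170. Without shControl replicate 2 the adjusted p was 0.00515 and the log2 fold change 0.91, under the limit of 1, and without shControl replicate 3 the call held.

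The other members with large positive log2 fold changes did not pass the threshold. CHMP1B-AS1 was measured at 6.68, 3.41 and 3.95 CPM in shControl and at 11.7, 8.70 and 13.5 CPM in shPUS1, without overlap. Its log2 fold change of 1.27 (standard error 0.305) had an adjusted p of 0.0638, which was 0.0263 without shControl replicate 2 and 0.00315 with DESeq2. Since every exon base of it also belongs to CHMP1B, its counts depend on how reads were assigned between the pair, and CHMP1B itself stood at 0.16 on the log2 scale (adjusted p = 0.787), or -0.18 without shControl replicate 2.

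GATA2-AS1, opposite the gene of a zinc finger transcription factor of blood stem cells and sharing no exon base with it, was measured at 9.69, 7.34 and 11.1 CPM in shControl and at 15.8, 17.02 and 13.5 CPM in shPUS1 (log2 fold change 0.72, adjusted p = 0.0928). Here the groups did not overlap. FOXD2-AS1, next to a forkhead transcription factor gene, RNF213-AS1, opposite a large ubiquitin ligase, and PRKG1-AS1, opposite a kinase activated by cGMP, had values of 0.78, 0.78 and 0.76 on the log2 scale, and their adjusted p were 0.281, 0.424 and 0.267. In these 3 the groups overlapped and shControl replicate 2 was the lowest library, at 0.786, 0.891 and 1.94 CPM. Without it their log2 fold changes were 0.46, 0.31 and 0.40.

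**Figure D3:**
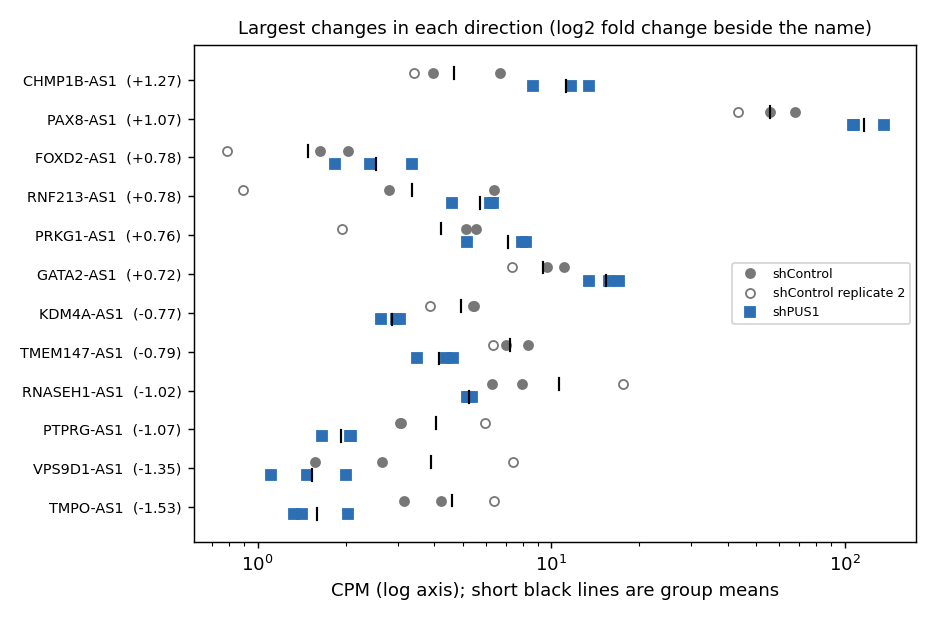
CPM in each library (horizontal log axis) of the 6 members with the largest positive and the 6 with the largest negative log2 fold change among those with under 20% of their 100-base stretches in another gene than the host, which stands beside each name; circles are shControl (open for replicate 2), squares are shPUS1 and short lines are group means. PAX8-AS1 lies at 43.5 to 67.9 CPM in shControl and 107 to 136 CPM in shPUS1, and VPS9D1-AS1 and RNF213-AS1 show how far the open circle can lie from the other controls.

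TMPO-AS1 (ENSG00000257167, chromosome 12, 98512973 to 98516422, minus strand), a divergent transcript, had the lowest log2 fold change of the members at -1.53 (standard error 0.352, adjusted p = 0.0602). It was measured at 3.14, 6.40 and 4.22 CPM in shControl and at 1.34, 2.02 and 1.42 CPM in shPUS1. All shPUS1 libraries lay below all shControl libraries, on 24 to 122 counts a library. The host TMPO, which encodes lamina-associated polypeptides of the nuclear envelope, was lower as well, at 245, 482 and 251 CPM in shControl and 196, 193 and 198 CPM in shPUS1 (log2 fold change -0.74, adjusted p = 0.132, or -0.35 and 0.0239 without shControl replicate 2). The transcript lay farther below its host in shPUS1 than in shControl, with a difference of -0.76 in log2 CPM and no overlap (exact permutation p = 0.1, the smallest possible). TMPO-AS1 had an adjusted p of 0.0254 without shControl replicate 2 and of 0.00560 with DESeq2. It shares 21.2% of its exon bases with TMPO.

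Of the next 5 members by negative log2 fold change, VPS9D1-AS1 and RNASEH1-AS1 owed much of the size of their change to shControl replicate 2. VPS9D1-AS1, opposite a gene with a VPS9 domain, was measured at 1.57, 7.44 and 2.66 CPM in shControl and at 1.11, 1.48 and 2.01 CPM in shPUS1, so the groups overlapped. Its log2 fold change was -1.35 (adjusted p = 0.189) and -0.47 without that library. RNASEH1-AS1, divergent to the gene of ribonuclease H1, which degrades RNA in RNA-DNA hybrids, was measured at 7.98, 17.6 and 6.27 CPM in shControl and at 5.17, 5.25 and 5.37 CPM in shPUS1. Its groups did not overlap, with or without shControl replicate 2. Its log2 fold change was -1.02 (adjusted p = 0.150) and -0.44 without that library.

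PTPRG-AS1, opposite a receptor-type tyrosine phosphatase, stood at -1.07 on the log2 scale (adjusted p = 0.116) and had shControl replicate 2 as its highest library, at 5.98 CPM beside 3.08 and 3.07, without which it stood at -0.67 (adjusted p = 0.101). In TMEM147-AS1, divergent to a membrane protein of the endoplasmic reticulum, and KDM4A-AS1, opposite a histone lysine demethylase, replicate 2 was the lowest control instead. TMEM147-AS1 was measured at 7.22 ± 1.00 CPM in shControl and 4.16 ± 0.586 CPM in shPUS1 (SD, n = 3 each), and KDM4A-AS1 at 4.92 ± 0.902 and 2.88 ± 0.226 CPM (SD, n = 3 each). Neither pair of groups overlapped, and the adjusted p of 0.0899 and 0.115 became 0.0178 and 0.0167 without replicate 2, at log2 fold changes of -0.88 and -0.92.

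Of 25 noncoding RNAs with a described function, a list chosen with earlier results known, 13 were members. None of the 13 passed edgeR's threshold, while 6 had an unadjusted p under 0.05 (25.5% of all genes did) and DESeq2 called 1, TMPO-AS1. In 3 of them every shPUS1 library lay above every shControl library (18.8% of all genes), and in 4 every one lay below (17.3%). OIP5-AS1 was among the higher ones, at 98.5, 84.7 and 109 CPM in shControl and 130, 145 and 129 CPM in shPUS1, a log2 fold change of 0.47 with a standard error of 0.134 (adjusted p = 0.0922, and 0.0339 with DESeq2). ZNF674-AS1, at 8.21 ± 0.529 and 10.9 ± 0.878 CPM (SD, n = 3 each), and MCM3AP-AS1, at 5.27 ± 1.48 and 7.47 ± 1.03 CPM (SD, n = 3 each), were the others. FGD5-AS1 was among the lower ones, at 112, 192 and 120 CPM in shControl and 107, 101 and 93.6 CPM in shPUS1, and its log2 fold change of -0.49 (adjusted p = 0.191) was -0.21 without shControl replicate 2. The others lower in every library were TMPO-AS1, PTPRG-AS1 and ZEB1-AS1. NNT-AS1, divergent to the mitochondrial transhydrogenase gene NNT, was measured at 27.0 ± 0.967 and 25.5 ± 2.02 CPM (SD, n = 3 each). PSMA3-AS1, MAPKAPK5-AS1, SBF2-AS1, LOXL1-AS1 and STARD4-AS1 had log2 fold changes between -0.31 and 0.05, with overlapping groups. Of the members with the highest levels, SLCO4A1-AS1 and LIMD1-AS1 had log2 fold changes of 0.04 and 0.08. SERTAD4-AS1 had 0.48 (adjusted p = 0.146), at 10.2 ± 1.37 and 14.2 ± 1.14 CPM (SD, n = 3 each) without overlap.

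Each member was then compared with its host inside every library, as log2 CPM of the member minus log2 CPM of the host. Of 136 pairs with a tested host, the groups of this difference did not overlap in 37 (27.2%), where the member lay relatively lower in shPUS1 in 26 and relatively higher in 11. In 1139 other pairs of tested genes that start head to head within 2000 bases, the share was 34.1%. All of these other pairs are divergent by position, and neither partner was set as a host, so their share has no direction. Of the 136 pairs 66 are divergent and 69 antisense overlapping, so the sets differ in position. The median size of the change in this difference was 0.35 for the members and 0.34 for those other pairs. Member and host had log2 fold changes of the same sign in 77 pairs (56.6%), beside 59.7% of the other pairs. Across the 136 pairs, which come from the same libraries and are not independent, Pearson's r of the 2 log2 fold changes was 0.23 and Spearman's coefficient 0.26, and across the other pairs they were 0.21 and 0.20. Among 30 pairs whose member shares no exon base, 9 did not overlap, 8 relatively lower and 1 relatively higher. Of the hosts, RAB30 rose and LOXL1 fell past the threshold. Without shControl replicate 2, with 2 libraries against 3, the count of pairs without overlap was 69 of 137, 50 relatively lower and 19 relatively higher, beside 49.7% of the other head-to-head pairs.

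**Figure D4:**
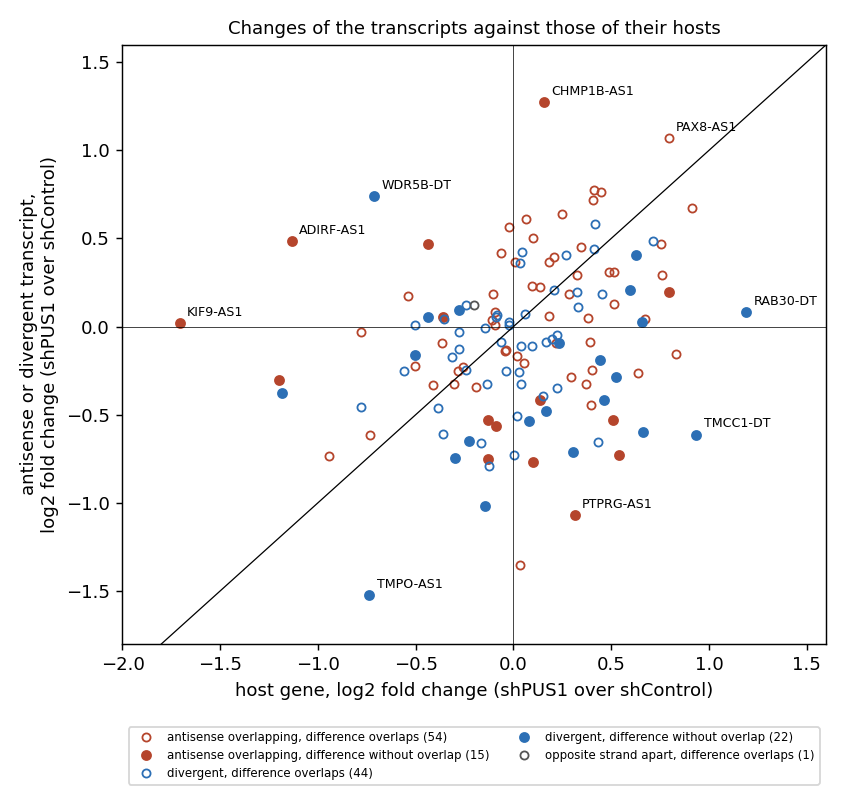
Log2 fold change of each transcript (vertical axis) against that of its host (horizontal axis) in 136 pairs, coloured by position; filled points are the 37 pairs in which the member minus host difference did not overlap between the groups, and the diagonal marks equal change. Points scatter on both sides of the diagonal, with TMCC1-DT and RAB30-DT far below it and WDR5B-DT, ADIRF-AS1 and KIF9-AS1 far above it.

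The pair with the largest relative decrease was TMCC1-DT and TMCC1, a coiled-coil protein of the endoplasmic reticulum, whose RefSeq promoter windows largely coincide (printed above). TMCC1-DT (ENSG00000271270) was measured at 3.53, 3.25 and 3.07 CPM in shControl and 1.78, 2.35 and 2.30 CPM in shPUS1 (log2 fold change -0.61, adjusted p = 0.189), on 32 to 62 counts a library. TMCC1 went the other way, from 15.3, 12.2 and 16.6 CPM to 24.3, 29.3 and 30.6 CPM. Its log2 fold change was 0.94 (adjusted p = 0.0438), or 0.81 (adjusted p = 0.00606) without shControl replicate 2. The member minus host difference was -2.08, -1.87 and -2.39 in shControl and -3.69, -3.58 and -3.67 in shPUS1. The groups were apart by 1.53 on the log2 scale (SD within the groups 0.26 and 0.06), and by 1.41 without shControl replicate 2. The exact permutation p of 0.1, the smallest possible, follows from the choice of pairs without overlap. TMCC1-DT shares no exon base with another gene.

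RAB30-DT and RAB30, a small GTPase of the Golgi, differed in a similar way, since the host rose and the divergent transcript did not pass the test. RAB30 rose from 30.2 ± 9.32 to 68.8 ± 7.74 CPM (SD, n = 3 each; log2 fold change 1.19, adjusted p = 0.0462, or 0.96, under the limit of 1, and 0.00349 without shControl replicate 2). RAB30-DT was measured at 9.69, 8.65 and 10.0 CPM in shControl and 8.90, 10.7 and 10.4 CPM in shPUS1, a log2 fold change of 0.08 with a standard error of 0.177. The difference between the partners was lower by 1.15 in shPUS1. PPP1R26-AS1 and PPP1R26, a regulatory subunit of protein phosphatase 1, diverged by -1.28, with the host at 62.6 ± 18.8 and 99.2 ± 4.14 CPM (SD, n = 3 each) and the member at 2.66 ± 0.527 and 1.75 ± 0.318 CPM (SD, n = 3 each). RefSeq places the starts of that pair 7532 bases apart, where the table's coordinates make it divergent with 5′ ends that overlap.

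The antisense transcripts PTPRG-AS1 and SLC25A25-AS1, the latter opposite a mitochondrial carrier of adenine nucleotides, changed by -1.28 and -1.25 relative to their hosts. SLC25A25-AS1 was measured at 3.14, 3.77 and 4.02 CPM in shControl and 2.17, 2.52 and 1.89 CPM in shPUS1, and SLC25A25 at 18.3 ± 2.79 and 26.6 ± 0.225 CPM (SD, n = 3 each). ZEB1-AS1 lies divergent to ZEB1, the transcription factor that represses E-cadherin in epithelial to mesenchymal transition, and changed by -1.04 relative to it. It was measured at 7.33, 5.40 and 6.40 CPM in shControl and 3.23, 5.36 and 3.07 CPM in shPUS1 (log2 fold change -0.71, adjusted p = 0.172). ZEB1 was at 69.1, 78.4 and 89.3 CPM in shControl and 94.3, 106 and 92.3 CPM in shPUS1 (log2 fold change 0.30, adjusted p = 0.209). The highest shPUS1 value of ZEB1-AS1 lay only just below the lowest control. These 6 pairs were chosen among pairs whose difference did not overlap between the groups. That choice fixes their exact permutation p at 0.1, so this p adds nothing to it.

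Of the pairs in which the member gained on its host, WDR5B-DT and WDR5B share a promoter window. WDR5B-DT, divergent to this paralogue of the histone methylation scaffold WDR5, was measured at 5.30, 9.23 and 9.81 CPM in shControl and at 11.8, 12.7 and 16.2 CPM in shPUS1 (log2 fold change 0.74, adjusted p = 0.142). WDR5B was measured at 5.24, 7.23 and 5.72 CPM in shControl and 3.95, 3.45 and 3.72 CPM in shPUS1 (log2 fold change -0.71, adjusted p = 0.112), so neither passed the test while the groups of each did not overlap. The difference was 0.02, 0.35 and 0.77 in shControl and 1.55, 1.85 and 2.09 in shPUS1, a change of 1.45 that was 1.44 without shControl replicate 2. Of the exon bases of WDR5B-DT, 47.6% are shared with KPNA1, an importin alpha gene whose log2 fold change was 0.10 (adjusted p = 0.645). In KIF9-AS1 and KIF9, a kinesin motor, and in ADIRF-AS1 and ADIRF, an adipogenesis factor, the change of 1.504 and 1.41 in the difference came with hosts at log2 fold changes of -1.71 (adjusted p = 0.0686) and -1.13 (adjusted p = 0.159) and members at 0.02 and 0.48. In both hosts shControl replicate 2 was the highest library, and without it the changes in the difference were 0.85 and 0.78. Without that library KIF9 stood at -1.21 (adjusted p = 0.0375), past the threshold, and ADIRF at -0.49 (adjusted p = 0.209). CHMP1B-AS1 gained 1.00 and OIP5-AS1 0.82, or 0.40 for OIP5-AS1 without that library. LOXL1-AS1 gained 0.95 on LOXL1, a cross-linking enzyme of elastic fibres that fell from 19.5 ± 3.66 to 8.51 ± 1.56 CPM (SD, n = 3 each; log2 fold change -1.20, adjusted p = 0.0418), while LOXL1-AS1 was at 13.3 ± 5.06 and 10.8 ± 1.08 CPM (SD, n = 3 each).

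**Figure D5:**
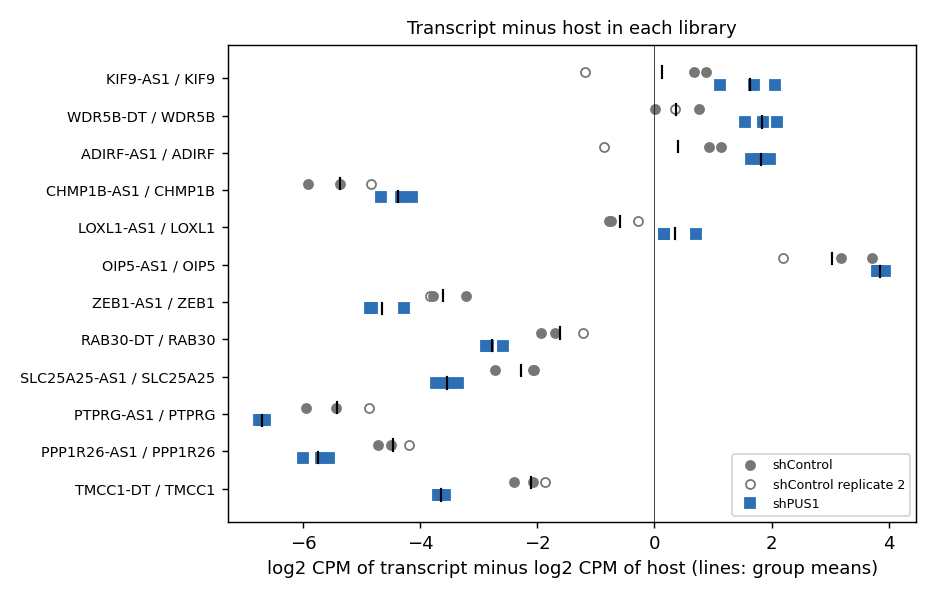
Log2 CPM of the transcript minus log2 CPM of its host in each library (horizontal axis) for the 6 pairs with the largest increase and the 6 with the largest decrease in this difference among pairs without overlap; circles are shControl (open for replicate 2), squares are shPUS1 and short lines are group means. TMCC1-DT moves from between -2.39 and -1.87 to between -3.69 and -3.58, and in KIF9-AS1 and ADIRF-AS1 the open circle lies far from the other controls.

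By position, among 66 divergent pairs the difference was lower without overlap in 17 and higher in 5, and among 69 antisense overlapping pairs lower in 9 and higher in 6. Among the 28 -DT pairs it was lower in 9 and higher in 1, which was WDR5B-DT. Counting both directions, 34.1% of the 1139 other head-to-head pairs did not overlap. Neither partner of those pairs was set as a host, so the split into lower and higher has no comparison. It is not shown to be a trait of -DT or divergent transcripts. No test compared the classes, and these counts are descriptions. The classes rest on the table's coordinates, and RefSeq places some starts otherwise. HERPUD2-AS1 and KTN1-AS1, counted as antisense overlapping, start 70 and 114 bases from their hosts in RefSeq, head to head. NRSN2-AS1, counted as divergent, starts 21858 bases from its host there. The median log2 fold change was -0.11 for divergent members, 0.01 for antisense overlapping members and -0.13 for those ending in -DT. None of the 28 -DT members passed the threshold in edgeR or DESeq2, where 5 and 4 had an unadjusted p under 0.05 (25.5% of all genes in edgeR).

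The genes whose products end or degrade such transcripts were read from the same fit. None of 22 genes of the nuclear exosome and its adaptors passed edgeR's threshold, while 8 had an unadjusted p under 0.05 (25.5% of all genes did), and DESeq2 called none at this threshold with 3 at an adjusted p under 0.05. Their median log2 fold change was -0.31, beside -0.03 for all genes, with 8 genes lower in every shPUS1 library (17.3% of all genes) and 3 higher (18.8%). Of 25 genes of early termination and cap binding, 1 fell and 24 did not pass, where 1.37% of all genes passed in either direction. An unadjusted p under 0.05 was reached by 6 (25.5% of all genes). Their median was -0.25, with 7 lower in every shPUS1 library (17.3% of all genes) and 3 higher (18.8%). The gene that fell was INTS14, a subunit of the Integrator complex, at 21.0 ± 5.75 CPM in shControl and 9.99 ± 0.525 CPM in shPUS1 (SD, n = 3 each; log2 fold change -1.07, adjusted p = 0.0490). Of these 47 genes, 1 passed in edgeR when shControl replicate 3 was left out and 0 when any other single library was, shControl replicate 2 included (12 with an adjusted p and 18 with an unadjusted p under 0.05 in that fit, where INTS14 was at -0.83 with an adjusted p of 0.00501). The shares of all genes at these limits were not counted without shControl replicate 2, nor with DESeq2. The 25.5% belongs to the edgeR fit of all 6 libraries, so the 12, the 18 and the DESeq2 count have no comparison.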

How the data were processed

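Poly(A) RNA of 3 shControl and 3 shPUS1 libraries of MDA-MB-231 cells was sequenced. The submitters' processing notes name HISAT2 and HTSeq 0.6.1. The genome build, annotation and strand setting are not given in the sources used here. The authors deposited estimated counts for each gene, not normalized, and the FPKM they derived from these counts, the exonic length and the library total. The exonic lengths come with the deposited table. All 6 counts lay within 0.01 of a whole number in 58 members, 30 of the 32 without shared exon bases and 28 of the 115 with them. No library was pooled, and PCR reads are not independent molecules. All 147 members have an identifier in GENCODE release 29 (GRCh38), 80 with the same coordinates, and this release gave the shared exon bases.

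Counts were rounded, filtered with filterByExpr, scaled by TMM (factors of 0.973 to 1.03) and tested over all genes in R 4.3.3 by edgeR 4.0.16, using its quasi-likelihood test (Benjamini-Hochberg adjustment, prior count 2 for log2 CPM), after a check on simulated data. Pair differences and sums were tested with exact two-sided permutation tests (scipy 1.17.1). DESeq2 1.42.0, limma 3.58.1 on log2(FPKM + 1) or log2(FPKM + 0.1) (genes averaging 0.1 FPKM or more), DESeq2 size factors, library totals, no filter, a replicate block, other count minimums, members without shared exon bases and each library left out in turn were alternatives. The alternatives for the exosome and termination genes, the other head-to-head pairs and the pair differences and host values that leave out shControl replicate 2 were chosen after seeing the data. The members and lists were chosen with earlier results of these data known. Named members were those past the threshold, the 6 largest log2 fold changes each way (leaving out members with at least 20% of their 100-base stretches in a gene other than the host), the 6 highest FPKM, the described RNAs, the 6 largest pair differences each way without overlap, and those at the count threshold, with their hosts. Replicate numbers did not pair the libraries (correlations of residuals -0.05, -0.03 and -0.19).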

Additional observations from a re-analysis of the deposited data

How the results depend on the processing

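The number of members past the threshold was 3 without a filter on low counts and with DESeq2 (PAX8-AS1, CHMP1B-AS1 and TMPO-AS1 in both), 3 for rows with at least 100 counts, and 0 among members with no shared exon base (edgeR, 7 with an unadjusted p under 0.05). It was 0 with limma on log2(FPKM + 1) and on log2(FPKM + 0.1) (24 and 25 with an unadjusted p under 0.05), and 0 in edgeR with a replicate block (14 with an unadjusted p under 0.05). The share of all genes with an unadjusted p under 0.05 was not counted for limma or the block, so these counts have no comparison. Leaving out 1 library gave 0 to 4, and the 4 were reached without shControl replicate 2 (CHMP1B-AS1, TMPO-AS1 and, named after their values were seen, CCDC18-AS1 and ZNF436-AS1). The median log2 fold change of members was 0.028 for rows with at least 500 counts. The number of pairs without overlap was 59 at a minimum of 100 counts, 19 of 73 at 500 counts, 9 of 30 with no shared exon base, and 40 to 69 when 1 library was left out, which also makes a lack of overlap more likely by construction. Of the exosome and termination genes, 0 passed with limma at either pseudocount (15 with an unadjusted p under 0.05 at each) and with the replicate block (9), and 0 to 1 when 1 library was left out. Of 455 single values of named members under an alternative, 424 kept direction and side of the threshold, and 8 members, none past the threshold, reversed in some. KIF9-AS1 was at -0.013 with library totals and at -0.0014 with limma on log2(FPKM + 1). With 1 library left out the values ran from -0.235 to 0.224 for KIF9-AS1, -0.157 to 0.345 for LIMD1-AS1, -0.507 to 0.0399 for LOXL1-AS1, -0.352 to 0.111 for MAPKAPK5-AS1, -0.0592 to 0.287 for PSMA3-AS1, -0.0913 to 0.222 for SBF2-AS1, -0.0892 to 0.236 for SLCO4A1-AS1 and -0.331 to 0.296 for STARD4-AS1.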

Other observations

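Among the 1524 rows with these endings and fewer than 200 counts, 196 were tested and 3 passed the threshold (1.53%). They are named after their values were seen. IL10RB-DT, listed at 0 in all 3 shControl libraries, was measured at 1.22, 1.53 and 1.59 CPM in shPUS1, and no fold is given against 0. USP2-AS1, opposite a ubiquitin protease gene, fell from 2.60 ± 0.354 to 0.731 ± 0.126 CPM (SD, n = 3 each; log2 fold change -1.82, adjusted p = 0.0404 in edgeR's quasi-likelihood test). ADGRD1-AS1 was the other lower one. LYPLAL1-DT, 1 count below the minimum, was measured at 1.51, 0.786 and 0.749 CPM in shControl and at 2.56, 2.24 and 3.72 CPM in shPUS1, a log2 fold change of 1.48 that did not pass (adjusted p = 0.0800).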
